A study of Mus musculus with 12 samples.

Results

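Poised enhancers, H3K4me1 regions that also lay under H3K27me3 and carried neither H3K27ac nor H3K4me3, were described in cell lines from mouse pancreatic cancer. They were selected by overlap of region lists: a region of the H3K4me1 list of the female KDM6A-WT line was a member when at least 1 bp lay under a region of that line's H3K27me3 list and none under its H3K27ac or H3K4me3 list. The rule found 3429 regions, 6.11% of the 56076 H3K4me1 regions of the line. The other lists show where the same stretches carried H3K4me1 in the remaining lines: female KDM6A-KO, male KDM6A-KO and male KDM6A-WT. The KDM6A and MLL4 lists came from female KDM6A-KO and female KDM6A-WT cells. Each combination of antibody, sex and genotype was 1 library, 11 with a list used here out of 12 in the series. All lines were grown in F12/DMEM with EGF and received no treatment. The cell type label traces every line, WT ones too, to K6A null tumours, so KO and WT follow the genotype label. No label gives the number of tumours or clones behind a line, or the means by which Kdm6a was removed.

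H3K4me1 is laid down at enhancers mainly by the methyltransferases MLL3 and MLL4, before or together with activation. H3K27ac, written by p300 and CBP, marks the enhancers that are active, and H3K27me3, written by the Polycomb repressive complex PRC2, marks silenced genes and elements and cannot share a lysine with H3K27ac. Elements with H3K4me1 and H3K27me3 but no H3K27ac are called poised and were first described near developmental genes of embryonic stem cells. KDM6A, also called UTX, removes H3K27me3 and is a subunit of the MLL3 and MLL4 complexes, so it is linked to both marks of this class. The question put to the lists was whether H3K4me1 at these elements was listed in lines labelled KDM6A-KO. H3K27me3, H3K27ac and H3K4me3 lists came from female WT alone, so whether a region was poised in another line was not measured.

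The lists held from 2130 regions for MLL4 of female WT to 64247 for H3K4me1 of male WT, and their regions together held from 108165 to 17526099 reads. How deeply a library was sequenced cannot be read from its list. The H3K4me1 lists were of unequal length, with 35041 regions in female KO, 49780 in male KO and 64247 in male WT. With 1 library per group no difference between lines has a replicate check and no test was made. The intervals in brackets are exact 95% binomial intervals over regions, which are not replicates, and cover counting error only. A region outside a list may hold signal below its threshold. The 2 marks were measured in separate libraries, so whether both lay on the same allele or in the same cells cannot be told apart from a mixture.

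The poised regions were short and modest. Their median length was 2200 bp, and the middle 50% ran from 1600 to 3200 bp. They held 17 to 1523 H3K4me1 reads with a median of 68, or 32.6 reads per kb. The class most like them, primed regions with H3K4me1 and none of the other 3 marks, held 24315 regions with a median of 2400 bp and 32.5 reads per kb. Active distal regions, with H3K27ac but neither H3K4me3 nor H3K27me3, numbered 6474 with medians of 3400 bp and 40.0 reads per kb. The marks were used by the rule, so these values describe the class. Poised regions lay a median of 23.6 kb from the nearest H3K27ac region, against 15.2 kb for primed ones, and 22.4 kb from the nearest H3K4me3 region, against 22.6 kb. Near the limits of the rule, 116 members had 200 bp under H3K27me3, and 17.2% of these were listed in female KO. On the outer side, 183 primed regions lay within 200 bp of an H3K27me3 region, with 21.9% listed. An active mark lay under 1 kb away from 91 members, and 37.4% of those were listed in female KO.

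The members were held by 2903 H3K27me3 regions, 9.50% of the 30556 in the list. Those regions were longer than the ones without a member, with a median of 8800 bp against 5800 bp. Their H3K27me3 reads per kb were similar, at 22.9 against 21.4. Most, 2374, held 1 member, and 529 held 2 or more. H3K4me3, the mark of promoters, was found elsewhere in the same H3K27me3 region in 485 of the 2903, or 16.7%, against 11.0% of the H3K27me3 regions without a member.

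The H3K27me3 region with the most members spanned chromosome 9, 61270601 to 61335000 in mm9. Its 64.4 kb held 1566 H3K27me3 reads and 8 poised regions with 40 to 364 H3K4me1 reads each. Of the 8, the female KO list held 1, the male KO list 0 and the male WT list 5. The female KO region over that 1 member also reached H3K27ac, and so did the male WT region over the same member. The next was chromosome 11, 95026801 to 95120600, with 7 members, of which 3 were in female KO, 2 in male KO and 6 in male WT. Another 5 H3K27me3 regions held 6 members each, and the longest of them by kb are given next. At chromosome 15, 78442401 to 78578000, 0 were in either KO list and 4 in male WT. At chromosome 17, 26464201 to 26521400, and chromosome 9, 57856001 to 57891600, 0 were in either KO list and 5 in male WT. The 5 H3K27me3 regions named here thus had more of their members in male WT than in either KO list. No KDM6A or MLL4 region of the WT line lay in any of these 5.

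**Figure D1:**
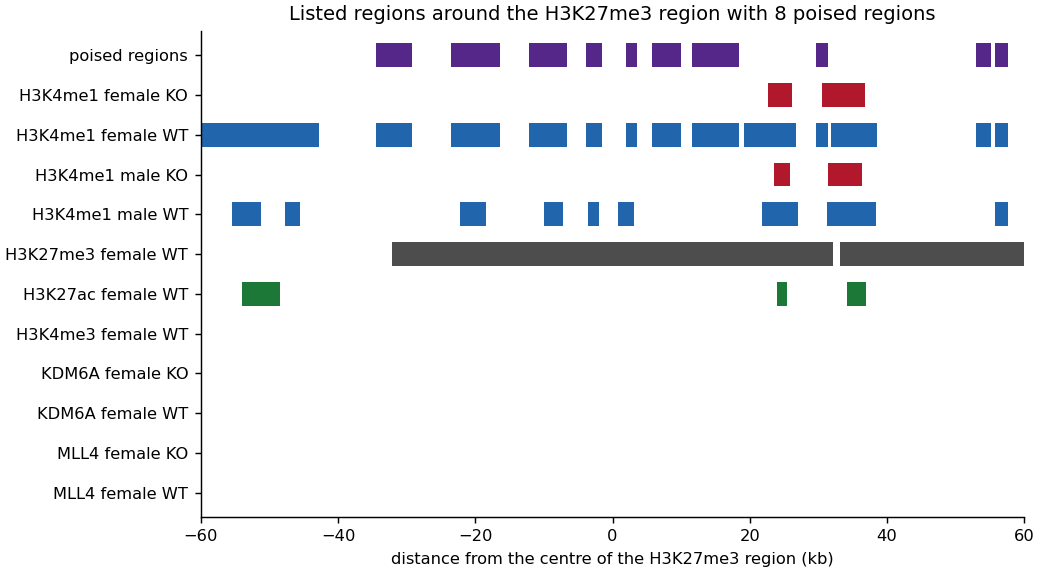
Listed regions within 60 kb of the centre of the H3K27me3 region on chromosome 9 that held 8 poised regions, with the distance from its centre in kb on the x axis and 1 row per list (bars are listed regions). The 8 poised regions form separate blocks along the H3K27me3 region. Male WT reaches 5 of them, 1 by a region that also reaches H3K27ac. Each KO list holds 2 regions here, all reaching H3K27ac. The poised regions at the far right lie in the next H3K27me3 region.

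Few poised regions were in the H3K4me1 lists of the KO lines. The female KO list held 470 of the 3429, or 13.7% [12.6 to 14.9], where 48.9% of all H3K4me1 regions of female WT were listed. The male KO list held 736, or 21.5% [20.1 to 22.9], against 61.0% of all regions. The male WT list, from a line the rule did not use, held 2416, or 70.5% [68.9 to 72.0], against 77.7% of all regions. Poised regions were thus mostly shared between the WT lines and mostly missing from each KO list. When the lists other than H3K27ac and H3K4me3 were kept only at or above their median reads, the rule left 872 members. Of these, 6.54% were in female KO, 10.4% in male KO and 61.5% in male WT. The cut also shortened these H3K4me1 lists, which lowers the shares by construction. Poised minus primed in female KO was -3.71 percentage points under the cut, against -3.34 without it.

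The rule did not use the male lists, so male KO and male WT can be set against each other outside the lists that chose the members. Every member still had to be in the female WT list. Stretches with H3K4me1 in KO lines alone cannot enter, so the counts can lean toward H3K4me1 shared by the WT lines. The other classes, drawn from the same list, are therefore given beside them. Listed in male KO but not in male WT were 104 members, and in male WT but not in male KO 1784, a ratio of 17.2 of WT over KO. The ratio was 6.78 for primed and 6.12 for active distal regions, and 3.58 for all H3K4me1 regions. In percentage points, male KO minus male WT was -49.0 for poised, -32.1 for primed, -15.8 for active distal and -16.6 for all regions. When every H3K4me1 list was cut to equal length, the value for all regions was -4.60. Regions with H3K27me3 and an active mark, 2921 in number, went the other way. They were listed in male KO at 87.4% [86.2 to 88.6] and in male WT at 83.2% [81.8 to 84.5]. In female KO 68.9% of them were listed. Where H3K27ac or H3K4me3 overlapped the same H3K4me1 region, H3K27me3 thus stood beside high shares in both KO lists. The median distance of these regions to H3K4me3 was 0 kb, against 15.2 kb for active distal regions. Regions with H3K4me3 and without H3K27me3 are not given as a class, so whether the shares go with H3K27me3 was not tested. Among members listed in male WT, 26.2% [24.4 to 28.0] were also in male KO, where the value for all H3K4me1 regions was 70.3% and for primed regions 40.5% [39.8 to 41.3].

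**Figure D2:**
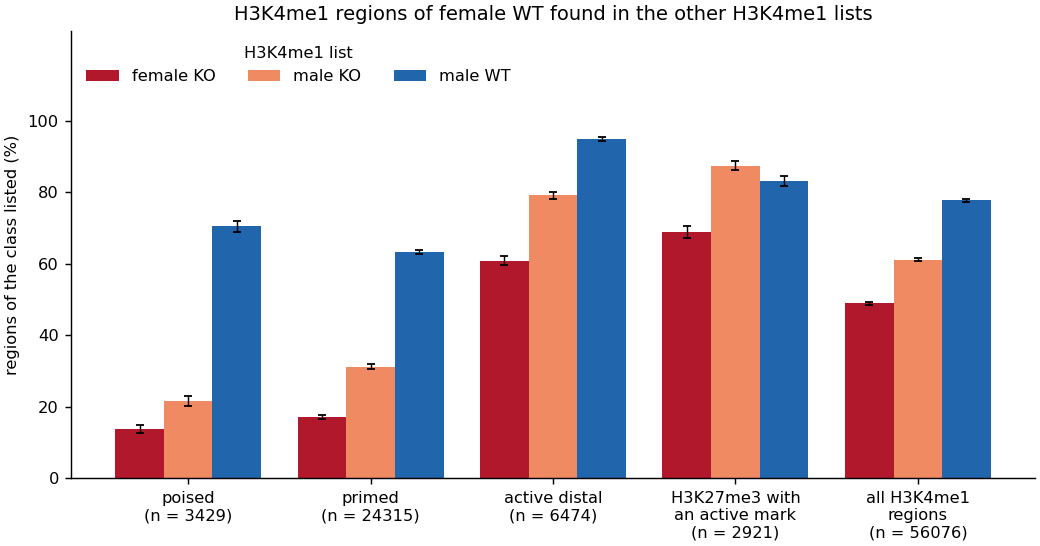
Percent of the H3K4me1 regions of female WT in each class (x axis, with the number of regions) that were listed in H3K4me1 of female KO, male KO and male WT, with exact 95% binomial intervals. For poised regions the bars stand at 13.7%, 21.5% and 70.5%, and the KO bars of the classes with an active mark stand above 60%.

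Against primed regions the poised class was lower in both KO lists and higher in male WT. The female KO list held 13.7% of poised and 17.1% [16.6 to 17.5] of primed regions. The male KO list held 21.5% and 31.2% [30.6 to 31.8], and the male WT list 70.5% and 63.3% [62.7 to 63.9]. None of these intervals overlapped between the classes. By distance to the nearest H3K27ac or H3K4me3 region, the difference in female KO lay mainly under 5 kb, with 22.5% [19.5 to 25.7] of poised and 29.1% [28.0 to 30.3] of primed regions listed. At 5 to 20 kb the shares were 14.1% [12.2 to 16.3] and 15.7% [14.9 to 16.4], and at 20 to 50 kb and beyond the intervals overlapped too. In male KO poised regions were lower in every distance class, with intervals that did not overlap. Under 5 kb male KO held 24.0% [20.9 to 27.4] of poised and 37.9% [36.6 to 39.1] of primed regions. At 50 kb and more it held 20.1% [17.2 to 23.3] and 28.9% [27.7 to 30.2]. Weighting the primed regions to the H3K4me1 reads of the poised ones, over 10 classes, left primed shares of 16.8% in female KO, 30.5% in male KO and 61.9% in male WT. Cutting each list to its leading 35041 regions by reads lowered the male shares. Poised regions then stood at 11.1% in male KO and 41.8% in male WT, and primed regions at 22.0% and 40.7%. Male KO minus male WT was then -30.8 points for poised, -18.6 for primed and -15.6 for active distal regions. It was 13.3 points for regions with H3K27me3 and an active mark.

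The shares grew with the strength of H3K4me1 in female WT. In male WT, 56.2% [53.1 to 59.3] of members under 50 reads were listed and 91.4% [87.8 to 94.2] of those with 200 reads and more. In male KO the values were 16.7% [14.5 to 19.2] and 32.4% [27.3 to 37.8], and in female KO 12.3% [10.3 to 14.4] and 18.8% [14.7 to 23.5]. The 324 members with the most reads were thus mostly present in the other WT line and mostly missing from each KO list. Primed regions with 200 reads and more were listed in male KO at 46.3% [44.3 to 48.3] and in female KO at 24.2% [22.5 to 26.0].

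Within each list, the regions over listed members ranked below those over listed primed regions by reads per kb. Their median percentile in the female KO list was 32.5 for poised and 40.6 for primed regions, in the male KO list 30.3 and 40.2, and in the male WT list 50.6 and 53.6. The lists differ in length, so the percentiles are not set against each other between lines. At least 50% of the member was covered in 79.4% of the cases in female KO and 79.3% in male KO, against 94.3% in male WT. Primed regions gave a like order, at 77.5%, 82.1% and 92.1%. A KO region that also reached an active mark of female WT accounted for 56 of the 470 members in female KO, or 11.9%, and 33 of the 736 in male KO, or 4.48%. For listed primed regions these shares were higher, at 22.4% and 15.7%. In male WT the shares were 6.75% of listed members and 9.70% of listed primed regions.

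Put together, 1606 members, 46.8% [45.2 to 48.5], were listed in male WT and in neither KO list. For primed regions this pattern took 33.3% [32.7 to 33.9] and for all H3K4me1 regions 19.6%. A further 868 members, 25.3% [23.9 to 26.8], were in none of the 3 other lists, against 29.7% of primed regions and 8394 of the 56076 H3K4me1 regions. In all 3 were 229 members, 6.68% [5.87 to 7.57], against 10.1% of primed, 52.7% of active distal and 41.2% of all H3K4me1 regions. Presence in both KO lists but not in male WT was found for 22, or 0.642%. This pattern took 1.20% of primed and 3.27% of all H3K4me1 regions. The 1606 members missing from both KO lists had a median of 73 reads, the 868 in none of the lists 53, and the 229 in all 3 lists 84. Border position, which means that the member extended outside its H3K27me3 region, was found for 39.6% of the 1606 and for 55.5% of the 229.

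**Figure D3:**
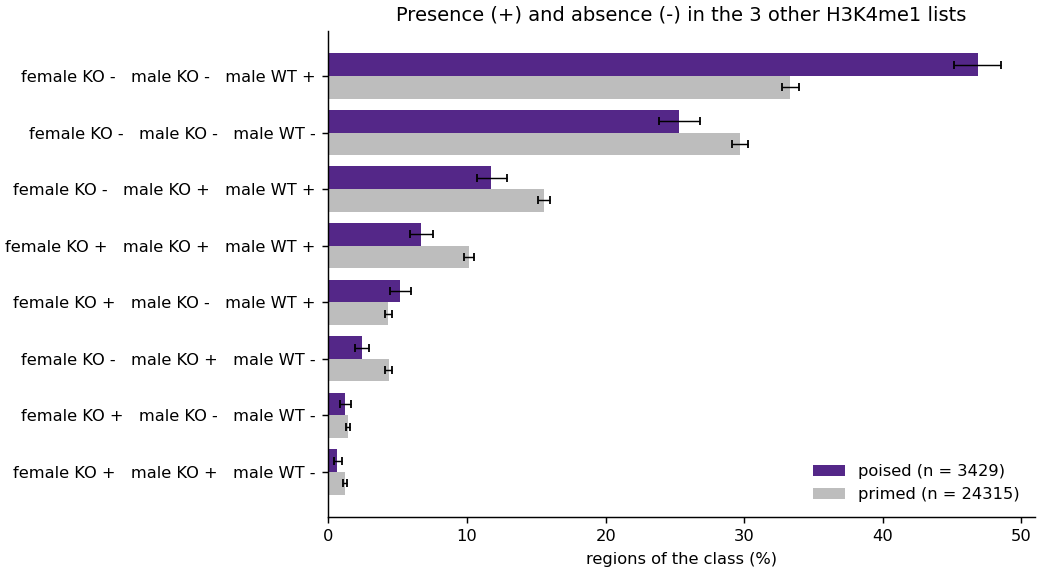
Percent of poised and of primed regions (x axis) with each pattern of presence (+) and absence (-) in the female KO, male KO and male WT lists of H3K4me1, with exact 95% binomial intervals. The leading pattern, male WT alone, holds 46.8% of poised and 33.3% of primed regions.

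A member listed in one KO line was more often listed in the other. Among members in male WT, those kept in female KO were in male KO in 229 of 407 cases, or 56.3% [51.3 to 61.1], and those absent from female KO in 403 of 2009, or 20.1% [18.3 to 21.9]. The gap held for members under 50 reads, at 56.4% against 15.4%, and for those with 100 reads and more, at 59.0% against 26.6%. Primed regions gave 70.2% [68.7 to 71.7] and 31.8% [31.0 to 32.6], and all H3K4me1 regions 92.2% and 40.5%, so a gap of this kind was also found outside the poised class.

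In 413 of the 529 H3K27me3 regions with 2 or more members, or 78.1%, none of the members was in the female KO list, and in 342, or 64.7%, none was in the male KO list. In male WT all members were listed in 286, or 54.1%. In 162 of the 529, 30.6%, every member was in male WT and none in either KO list, and in 7 every member was in both KO lists. Most of the 529, 421, held only 2 members. Over all members, the female KO list held 13.7%, the male KO list 21.5% and the male WT list 70.5%. With so few members per region, these shares alone give many regions with none or all listed. No background for unrelated members was computed, so whether members of the same H3K27me3 region went together was not tested.

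The members with the most reads show both outcomes. The leading one in male WT and neither KO list lay on chromosome 6, 118902401 to 118917600, a 15.2 kb region with 1048 reads in female WT and 28.9% of its length under H3K27me3. No KO region touched it, and male WT covered 88.2% of it. The next were a pair of regions on chromosome 1. The first, 135635801 to 135652800, had 876 reads, and male WT covered 88.2% of it. The other, 135854601 to 135870800, had 843 reads, and male WT covered 100%. Of these 2, 91.8% and 92.6% lay under H3K27me3.

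Among members in all lists, the leading one was chromosome 15, 82751001 to 82762000, inside an H3K27me3 region of 162.8 kb. It held 711 reads in female WT. The KO lists covered 29.1% of it in female KO and 38.2% in male KO, against 100% in male WT. On chromosome 13, 56645801 to 56658400, with 540 reads in female WT, female KO covered 20.6%, against 74.6% in male WT. On chromosome 1, 161614401 to 161623000, female KO covered 34.9% and male KO 32.6%, against 100% in male WT. Only 7.94% of the chromosome 13 region and 9.30% of the chromosome 1 region lay under H3K27me3. At these 3 members, the ones with the most reads of the shared set, the KO lists held only a part of the stretch. They were long, at 11, 12.6 and 8.6 kb, and are not typical of listed members. Over all listed members the median part covered was 81.8% in female KO, 78.2% in male KO and 95.7% in male WT.

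The 22 members in both KO lists but not in male WT were led by chromosome 12, 109600601 to 109604800, which held 141 reads in female WT and was covered to 71.4% in each KO list. The second, on chromosome 5, 123947001 to 123950400, held 115 reads there and was covered to 82.4% in female KO and 29.4% in male KO. The third, chromosome 8, 73343201 to 73346400, held 105 reads in female WT and was covered to 93.8% in female KO. The leading members found in female WT alone had 397 reads (chromosome 4, 136685201 to 136694800), 383 reads (chromosome 13, 53824201 to 53832200) and 363 reads (chromosome 19, 47493801 to 47499000). Under H3K27me3 lay 100% of the one on chromosome 4, 7.5% of that on chromosome 13 and 30.8% of that on chromosome 19. The ones on chromosomes 13 and 19 were overlapped by MLL4 of female WT, with 46 and 121 reads.

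Position was read from the edges of the H3K27me3 region. A member was inner when all of it lay in 1 H3K27me3 region, and a border member when at least 1 bp lay outside. Inner were 2036 members, or 59.4% [57.7 to 61.0], against 41.8% [40.0 to 43.6] of the H3K4me1 regions with H3K27me3 and an active mark and 51.3% of all H3K4me1 regions with H3K27me3. Of the 1393 border members, 1197 crossed 1 edge, 174 bridged a gap between H3K27me3 regions and 22 covered a whole one. Border members had a median of 1200 bp outside. They were longer than inner members, with medians of 2800 bp and 2000 bp, and had 92 against 59 reads. Inner members lay a median of 2600 bp from the nearer edge, and 103 of them touched it. These counts come from lists the rule used and are descriptions.

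Inner members were listed less often than border members in all 3 other lines. In female KO the shares were 11.4% [10.1 to 12.9] for inner and 17.0% [15.1 to 19.1] for border members. In male KO they were 17.3% [15.7 to 19.1] and 27.5% [25.2 to 29.9], and in male WT 66.2% [64.1 to 68.2] and 76.7% [74.4 to 78.9]. Among inner members, distance from the edge went with little difference, and the intervals of its classes overlapped. Members under 1 kb from the edge were in female KO at 10.1% [7.54 to 13.2] and those 4 kb and more from it at 12.5% [10.2 to 15.1]. In male KO these classes gave 17.9% [14.5 to 21.7] and 18.3% [15.6 to 21.3]. In male KO and male WT the border interval lay above that of every inner class. In female KO it overlapped the intervals at 1 to 2 kb, 13.3% [10.1 to 17.1], and at 4 kb and more. Length moved with position, so the classes were set side by side by length. In female KO the intervals then overlapped in each length class, at 11.2% [9.28 to 13.3] for inner and 15.8% [12.1 to 20.1] for border members under 2 kb, 11.8% [9.71 to 14.2] and 16.0% [13.3 to 19.0] from 2 to 4 kb, and 11.3% [7.13 to 16.7] and 75 of 375 [16.1 to 24.4] from 4 kb on. Among members of 4 kb and longer, inner ones were in male KO at 19.9% [14.4 to 26.4] and border ones at 36.3% [31.4 to 41.4]. Among members under 2 kb the values were 16.5% [14.2 to 18.9] and 23.0% [18.7 to 27.8], and in male WT 58.9% [55.8 to 62.0] and 62.6% [57.3 to 67.7], intervals that overlapped.

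**Figure D4:**
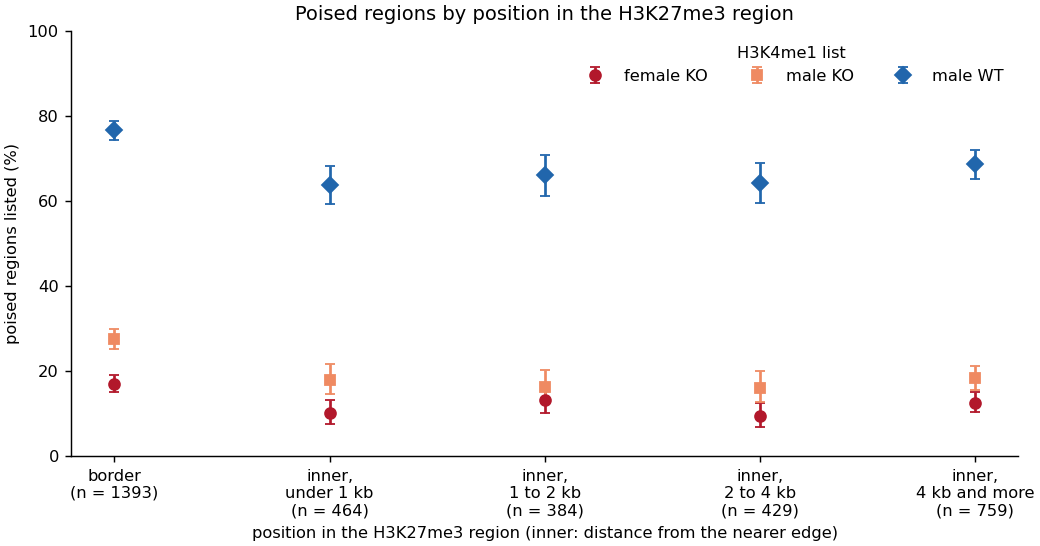
Percent of poised regions listed in H3K4me1 of female KO, male KO and male WT (y axis), by position in the H3K27me3 region (x axis: border, then inner classes by distance from the nearer edge, with the number of regions), with exact 95% binomial intervals. Border members stand above every inner class in each list, and the inner classes lie close to each other.

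Members whose H3K27me3 region was denser, or also held H3K4me3, were listed more often in female KO. By H3K27me3 reads per kb, in 3 classes of equal size, female KO held 15.7% [13.6 to 17.9] of the members in the highest class and 11.3% [9.51 to 13.3] in the lowest. In male KO these classes gave 262 and 229 of 1143 members, with overlapping intervals. Members in H3K27me3 regions under 5 kb were in female KO at 17.3% [14.2 to 20.6] and those in regions of 20 kb and longer at 12.3% [10.2 to 14.6], while male WT gave 72.4% [68.5 to 76.0] and 68.7% [65.6 to 71.7], and in both lists the intervals overlapped. The 628 members whose H3K27me3 region also held H3K4me3 were in female KO at 20.2% [17.1 to 23.6] and the 2801 others at 12.2% [11.1 to 13.5]. In male KO the same sets gave 23.9% [20.6 to 27.4] and 20.9% [19.4 to 22.5], and in male WT 71.2% and 70.3%, with overlapping intervals. Members near an H3K27ac or H3K4me3 region were also listed more often in female KO, with 22.5% under 5 kb and 8.70% [6.70 to 11.1] at 50 kb and more. In male KO these were 24.0% [20.9 to 27.4] and 20.1% [17.2 to 23.3]. The active marks were measured in the female WT line alone. Primed regions showed the same order in female KO, at 29.1% and 9.55% [8.75 to 10.4].

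KDM6A and MLL4 regions were fewer at poised regions than at all H3K4me1 regions. The KDM6A list of the line labelled KO for that protein was longer than that of the WT line, with 5961 regions against 2847, so an overlap with a KDM6A region does not by itself show binding of KDM6A. KDM6A of the KO line overlapped 37 members, or 1.08% [0.761 to 1.48], and KDM6A of the WT line 51, or 1.49% [1.11 to 1.95]. Over all H3K4me1 regions the values were 4.58% in KO and 2.97% in WT. MLL4 overlapped 65 members in KO, or 1.90% [1.47 to 2.41], and 37 in WT, or 1.08% [0.761 to 1.48], against 11.8% and 2.55% of all H3K4me1 regions. Primed regions had KDM6A of KO at 2.06% [1.88 to 2.24] and of WT at 1.65% [1.49 to 1.81], and MLL4 of KO at 3.80% [3.57 to 4.05] and of WT at 0.753% [0.648 to 0.869]. In the KO line poised regions thus had less of both than primed ones, and in the WT line the intervals of the classes overlapped. The KO list of MLL4 held 13152 regions and the WT list 2130, so levels are not comparable between the lines. KDM6A and MLL4 of the WT line met on 7 members, KDM6A of KO and WT on 2, and MLL4 of KO and WT on 1. None of the 4 lists touched 3269 members. No such counts are given here for the other classes, so these describe the members and set them apart from no other class. By position, KDM6A of WT overlapped 24 inner members, or 1.18% [0.757 to 1.75], and 27 border members, or 1.94% [1.28 to 2.81]. MLL4 of WT overlapped 16 inner members, or 0.786% [0.450 to 1.27], and 21 border members, or 1.51% [0.936 to 2.30], and both pairs of intervals overlapped. With at least 50% of the member covered, KDM6A of WT lay on 0.408% and MLL4 of WT on 0.292%.

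The KDM6A and MLL4 lists were dense on a few chromosomes, which carried much of this overlap. Of all H3K4me1 regions, MLL4 of KO overlapped 26.3% on chromosomes 1, 6 and 17 and 8.89% on the 15 chromosomes outside 1, 6, 15, 17 and 19. KDM6A of WT overlapped 11.7% on chromosomes 15 and 19 and 2.27% on those 15, and MLL4 of WT 9.31% and 2.02%. Of the 37 members with MLL4 of WT, 27 lay on chromosomes 15 and 19, and of the 51 with KDM6A of WT, 18. Over all H3K4me1 regions these were 372 of 1432 and 466 of 1668. On those chromosomes MLL4 of WT overlapped 7.30% [4.86 to 10.4] of poised and 4.55% [3.60 to 5.67] of primed regions. On the other 15 chromosomes it overlapped 0.265% [0.0973 to 0.576] and 0.455% [0.364 to 0.561]. KDM6A of WT there overlapped 1.06% [0.680 to 1.57] of poised and 1.09% [0.951 to 1.25] of primed regions. In the KO line 39 of the 65 members with MLL4 and 20 of the 37 with KDM6A lay on chromosomes 1, 6 and 17. Over all H3K4me1 regions these were 2463 of 6622 and 1215 of 2570. There MLL4 of KO overlapped 4.91% of poised and 12.8% of primed regions, and KDM6A of KO 2.52% and 6.61%. Whether the density on these chromosomes set the overlaps was not tested beyond leaving them out.

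**Figure D5:**
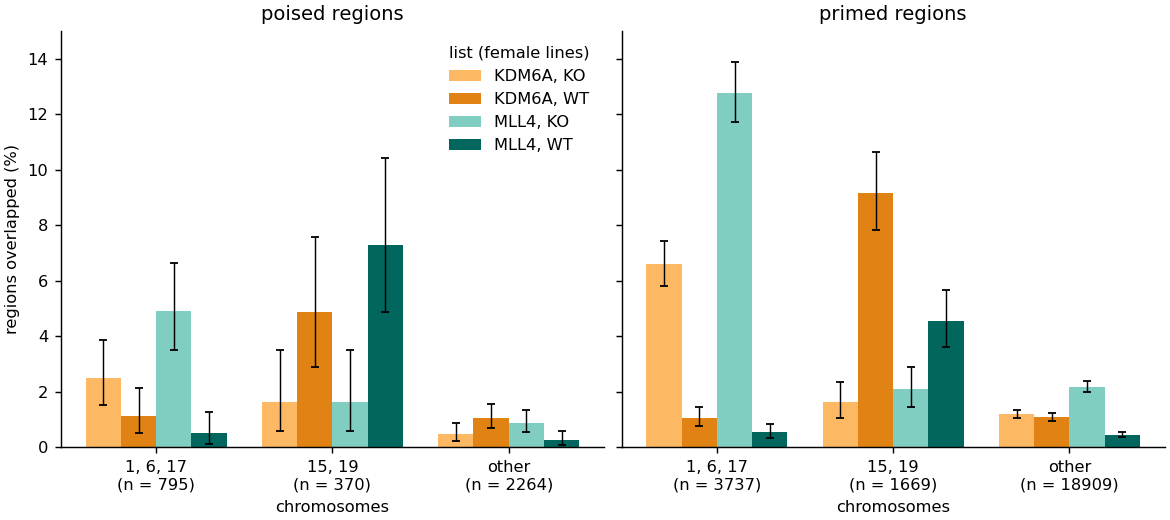
Percent of poised (left) and primed (right) regions overlapped by KDM6A and MLL4 of the female KO and WT lines (y axis), on chromosomes 1, 6 and 17, on 15 and 19, and on the other 15 (x axis, with the number of regions), with exact 95% binomial intervals. The KO lists stand highest on 1, 6 and 17 and the WT lists on 15 and 19, and on the other chromosomes the overlap with poised regions is at most 1.06%.

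Members under MLL4 of the KO line had a median of 113 H3K4me1 reads in female WT, against 68 for all members. Of these 65, 26 or 40.0% [28.0 to 52.9] were in the female KO list of H3K4me1, 38 or 58.5% [45.6 to 70.6] in male KO and 59 in male WT. Under MLL4 of KO, female KO held 45.2% [41.9 to 48.5] of primed regions and 87.9% [87.1 to 88.7] of all H3K4me1 regions. Of the 37 members under MLL4 of the WT line, 4 or 10.8% [3.03 to 25.4] were in female KO, 8 in male KO and 28 in male WT. Members under KDM6A of WT were in female KO in 7 of 51 cases, or 13.7% [5.70 to 26.3], with an interval that holds the 13.7% of all members. Under KDM6A of WT, female KO held 17.25% [13.7 to 21.3] of primed and 66.8% of all H3K4me1 regions. The member with the most reads of all lay on chromosome 15, 66672801 to 66694600, with 1523 reads, and MLL4 of WT overlapped it with 50 reads. It was missing from female KO, and male KO covered 68.8% of it and male WT 98.2%. The next members under MLL4 of WT, with 655 reads (chromosome 15, 66573201 to 66584000) and 463 reads (chromosome 12, 8048401 to 8057400), were in neither KO list, and male WT covered 72.2% and 44.4% of them. The leading members under KDM6A of WT, with 585 reads (chromosome 19, 36759401 to 36768200) and 564 reads (chromosome 13, 42814001 to 42822600), were in neither KO list, and male WT covered 84.1% and 95.3% of them. The next, on chromosome 19, 38205801 to 38214200, was covered to 42.9% in female KO.

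Poised regions were unevenly spread. They made up 10.3% of the H3K4me1 regions on chromosome 19 and 1.67% on chromosome 16, and the X chromosome held 13 of them among 894 H3K4me1 regions, or 1.45%. The share listed in female KO ran from 3.82% on chromosome 12 to 24.9% on chromosome 5, in male KO from 11.2% on chromosome 19 to 39.8% on chromosome 3, and in male WT from 52.6% on chromosome 17 to 84.6% on X. On each of the 20 chromosomes fewer members were listed in male KO than in male WT. Over the genome, all H3K4me1 regions also had lower shares in male KO, at 61.0% against 77.7%, and primed regions 31.2% against 63.3%. No listed shares per chromosome are given here for other classes, so these values set the members apart from no other class.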

How the data were processed

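Chromatin immunoprecipitation with sequencing gave 1 list of regions per library. The submitters' processing notes name Bowtie 1.1.2, SICER 1 and the mm9 mouse build, with no role stated. The deposited lists give chromosome, start, end and a whole number per region, read here, from its values, as a count of reads that the authors made per library. All borders fell on a 200 bp grid. Neighbours were at least 400 bp apart, but 600 bp for H3K27ac and 800 bp for H3K27me3, so the joining of neighbours differed by mark. No source used here gives the control, the threshold or the mapped depth. The input library was not used here. Counts rank regions within a list and are not levels between lists.

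Positions are printed from 1 in mm9. The gene table at hand is of another build, so no gene was assigned and no sequence read. A region was listed when at least 1 bp overlapped. Named regions were the 3 members with the most H3K4me1 reads in each pattern or binding class, and the 5 H3K27me3 regions with the most members, ties by length. The class, the alternatives and the classes by length, reads, distance and domain were chosen with earlier results of these data known. The code for overlaps (Python 3.11.15, pandas 2.3.3, numpy 2.4.6, scipy 1.17.1 for intervals) was tested on simulated data, and its overlaps were compared with those of bedtools 2.31.1. Plots were made in matplotlib 3.10.9.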

Additional observations from a re-analysis of the deposited data

How the results depend on the processing

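The difference of male KO minus male WT in poised regions was negative under every alternative run, and so were inner minus border and poised minus primed in female KO. The depth of the libraries and the thresholds of the lists limit what a missing region means. Where a value moved, the cause was not tested. With H3K27me3 over at least 50% of the region, shares were 12.6% in female KO, 19.3% in male KO and 68.5% in male WT, and 74.1% of members were inner. At or above the median reads of the lists other than H3K27ac and H3K4me3, 872 members were left by construction. Shares were 6.54% in female KO, 10.4% in male KO and 61.5% in male WT, which the shortened H3K4me1 lists lower by construction. KDM6A of WT lay on 2.06% and MLL4 of WT on 1.95%, and 49.9% were inner. The poised minus primed value of the male difference was -13.0 percentage points, against -16.9. With at least 50% of the member covered, shares were 10.9%, 17.0% and 66.4%, KDM6A 0.408% and MLL4 0.292%, which long members under short binding regions lower by construction, and inner minus border was -2.84 points, against -5.57. With H3K4me1 lists cut to the same number, male KO held 11.1% and male WT 41.8%, a difference of -30.8 points, and poised minus primed was -12.1. Joining H3K27me3 regions within 5 kb gave 76.0% inner, and asking for 1 kb from both edges 45.8%. Leaving out chromosomes 1, 6, 15, 17 and 19, chosen after seeing the data, gave 1.06% for KDM6A, 0.265% for MLL4 and -46.7 points for the male difference. Autosomes alone and no active mark within 1 kb left each share within its interval. The number of members was 3416 and 3338. The poised minus primed value of the male difference, which has no interval, was -16.9 and -16.2, and with primed regions weighted by reads or length -17.6 and -17.4. No paired analysis was possible because each group held 1 library and no test was made.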
